A study of Mus musculus with 6 samples.

Results

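The genes of vesicle traffic that carry Rab, SNARE and related names were compared between ileal crypts of Tl1a-transgenic (Tl1a-tg) and wild-type (WT) mice. Members were taken by gene symbol, as every listed gene whose name starts with Rab, Stx, Syt or Vps and a digit, or with Stxbp, Vamp, Sytl or Exoc, together with Snap23, Snap29, Nsf and Napa. This gave 85 of the 7120 listed genes, of which 29 were Rab GTPases, 1 a Rab-interacting protein, 8 syntaxins, 6 syntaxin-binding proteins, 3 Vamp genes, 4 of the Snap, Nsf and Napa group, 7 synaptotagmins, 1 Sytl gene, 23 Vps genes and 3 exocyst (Exoc) genes. Rab7, Rab11a, Rab27a, Vamp3, Vamp7, Vamp8, Stxbp2 and Vps35 were not analysed here. Each genotype had 3 libraries, all from crypts of C57BL/6 mice aged 3 months, with the Tl1a transgene in Tl1a-tg mice and no transgene in WT mice. Tnfsf15, the gene of Tl1a, was fitted near 0 in both genotypes, so its reads give no check of the labels. Crypts had been cut by laser from paraffin sections fixed in Methacarn. The labels do not give the promoter or the cell type that drives the transgene, nor whether 3 libraries mean 3 mice, so the deposited p-values may measure technical spread only.

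Membrane cargo moves between compartments in vesicles. Rab GTPases mark each compartment and recruit motors and tethers, the exocyst and the Vps complexes tether vesicles and sort endosomal cargo, and SNARE proteins on vesicle and target membrane (Vamp genes and syntaxins with Snap proteins) zip together to fuse them. Syntaxin-binding proteins hold syntaxins ready, synaptotagmins and Sytl proteins couple fusion to calcium or to Rab proteins, and Napa and Nsf take spent SNARE complexes apart. In the crypt this machinery releases the granules of Paneth cells and the mucin of goblet cells.

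Each deposited value is the product of a fitted mean, shared by the 3 libraries of a genotype, and a factor of the library. For Rab3d, a Rab GTPase of secretory granules, the deposited columns read 222, 243 and 172 in Tl1a-tg replicates 1 to 3, against 158, 70.0 and 172 in WT replicates 1 to 3. These differ within a genotype only by the library factor, by the same ratio for every gene, so they show no spread between libraries. Values below are therefore 1 fitted mean per genotype in reads per library at a common depth, with no SD. The sums of the deposited columns, which are not read depths, ran from 376022 to 530625 in Tl1a-tg and from 314186 to 774249 in WT. With no read counts at hand, depth could not be given. A mean at the lowest value the fit gave, or near 0, was read as a genotype without reads, and a gene with a mean of at least 10 in each genotype was called measured in both. In these bulk libraries fewer cells of a type and less RNA per cell cannot be told apart.

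Most traffic genes had reads in 1 genotype alone or in neither. Of the 85 members, 30 had reads in Tl1a-tg only, 12 were measured in both genotypes, another 12 were read in both but below 10 in at least 1 genotype (15.0% of all genes were), 11 had reads in WT only and 20 had reads in neither. Read in Tl1a-tg only were 35.3% of the members (31.4% of all genes), measured in both 14.1% (19.4%), read in WT only 12.9% (16.3%) and read in neither 23.5% (17.9%). An alternative chosen after seeing the data left out the genes whose mean 1 library alone can give. Then 4 members counted in Tl1a-tg only, 2 as measured in both and 2 in WT only. Over all genes these counts fell as well, from 2236 to 445, from 1379 to 416 and from 1164 to 362. Asking for means below 1 in Tl1a-tg and of at least 10 in WT left 7 members in WT only, and 1075 of all genes. Being read in Tl1a-tg only was thus about as common among the members as among all genes. Summed over the members, fitted means came to 2219 reads per library in Tl1a-tg and 1405 in WT, a ratio of 1.58 where the sum over all genes had 0.906. As shares of the fitted totals these sums are 0.461% (Tl1a-tg) and 0.265% (WT), and they carry no error.

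**Figure D1:**
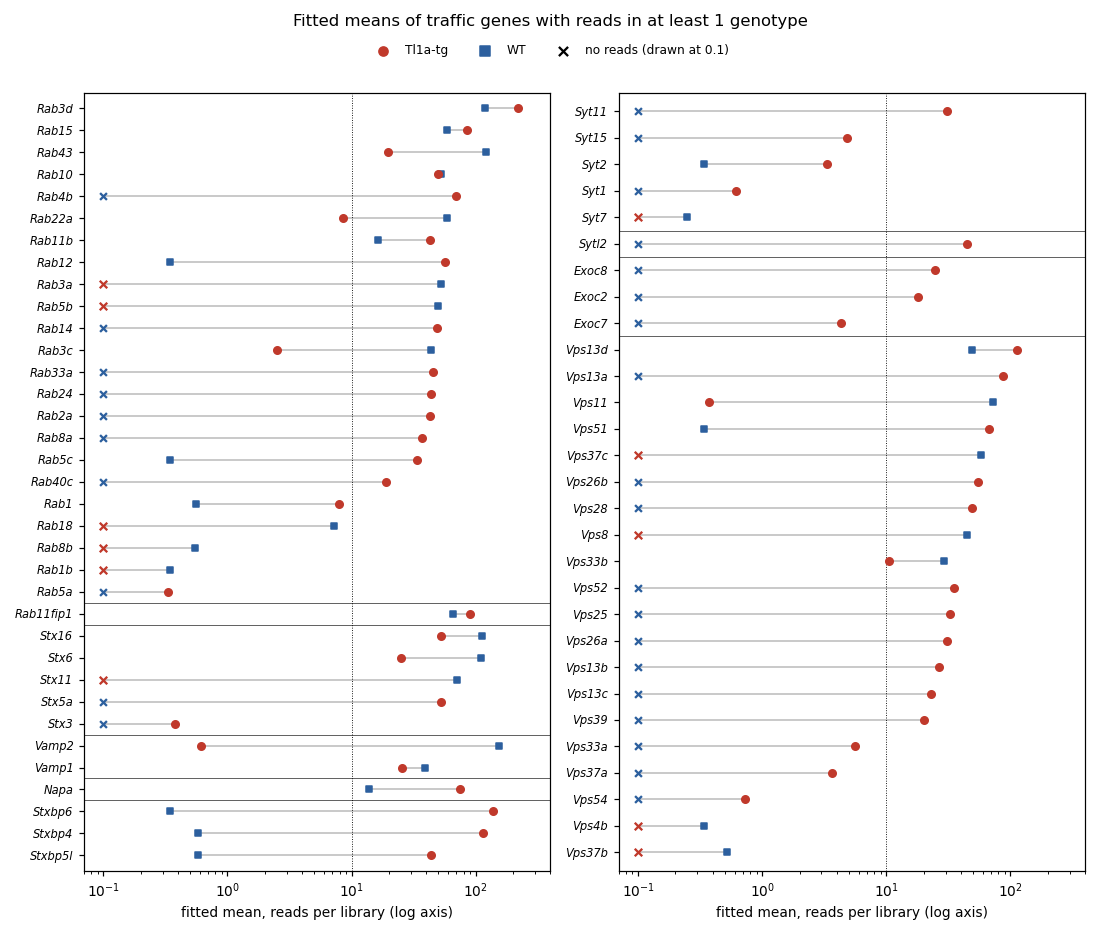
Fitted mean in reads per library (log axis) of the members with reads in at least 1 genotype, but for 1 that is not reported, grouped by family (thin lines), with circles for Tl1a-tg, squares for WT, crosses at 0.1 for a genotype without reads and a dotted line at 10. Members with both marks right of the dotted line, led by Rab3d at 220 in Tl1a-tg against 118 in WT, are the 12 measured in both genotypes.

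Among the Rab GTPases, 5 of 29 were measured in both genotypes, and their means lay between 19.5 and 220 in Tl1a-tg and between 16.2 and 120 in WT. Rab3d was the highest member in Tl1a-tg, and per kilobase of its longest coding transcript it had 56.6 reads in Tl1a-tg and 30.5 in WT. Rab15, an endosomal Rab, had 85.3 in Tl1a-tg against 59.2 in WT. Rab10, which directs vesicles to the basolateral membrane, had 49.8 in Tl1a-tg against 52.2 in WT. For each of these 3 genes the genotypes lay within 2-fold of each other. Rab11b of the recycling endosome had 42.5 in Tl1a-tg against 16.2 in WT. Rab43 of Golgi traffic ran the other way, with 19.5 in Tl1a-tg against 120 in WT. The Rab11 effector Rab11fip1, the only Rab-interacting protein listed, had 90.5 in Tl1a-tg against 65.9 in WT.

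Of the other Rab GTPases, 8 had reads in Tl1a-tg alone (27.6% of the 29, and 31.4% of all genes) and 5 in WT alone (17.2%, and 16.3% of all genes). Those in Tl1a-tg only included Rab4b of fast recycling (69.6 reads per library), Rab14 (48.9), Rab33a (45.2), the autophagy-linked Rab24 (43.5), Rab2a of transport between endoplasmic reticulum and Golgi (43.0), Rab8a of apical delivery (37.0) and Rab40c (19.1). Rab12 and the early endosomal Rab5c came close to this pattern, with 56.1 and 33.9 in Tl1a-tg and 0.342 each in WT. In WT only were Rab3a of regulated secretion (52.4), the early endosomal Rab5b (49.9), Rab18 of lipid droplets (7.26), Rab8b (0.545) and Rab1b (0.342). Rab3c had 2.50 in Tl1a-tg against 43.8 in WT, and the early endosomal Rab22a had 8.48 in Tl1a-tg against 58.7 in WT. Rab1 had 7.99 in Tl1a-tg against 0.562 in WT, and Rab5a had 0.334 in Tl1a-tg against no reads in WT. Rab2b, Rab6a, Rab21, Rab25, Rab27b and Rab39b had no reads in either genotype.

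The 3 SNARE genes measured in both genotypes, Stx16, Stx6 and Vamp1, had lower fitted means in Tl1a-tg, and Stx16 alone of them has a deposited DESeq2 p (0.738). Stx16, of the trans-Golgi network and endosomes, had 52.3 in Tl1a-tg against 112 in WT, and its partner Stx6 had 25.1 in Tl1a-tg against 111 in WT. Vamp1 had 25.7 in Tl1a-tg against 39.2 in WT. Vamp2, the vesicle SNARE of regulated exocytosis, had 0.615 in Tl1a-tg against 154 in WT, where it was the highest member, also per kilobase of transcript (70.0 reads). Its WT mean equals that of 274 reads in replicate 2 alone. Enteroendocrine markers also had higher means in WT, where 2 of the 3 listed (of 5) were read, and summed to 28.7 in Tl1a-tg against 114 in WT. Of these Chgb was read in WT alone (51.4) and Chga in neither. The WT means of Chgb and Gcg equal those of 206 and 251 reads in replicate 1 alone. That of Rab3a equals that of 210 reads in the same replicate. Such equalities may be accidental, and the part of enteroendocrine cells in the values of Vamp2, Rab3a and Rab3c was not tested. Stx11, a SNARE of granule release in lymphocytes, was read in WT only, with 71.0. T cell markers summed to 8.63 in Tl1a-tg against 166 in WT over the 2 listed of 5, with Cd8b1 at 0 reads in Tl1a-tg. The WT mean of Cd8b1 can be given by replicate 1 alone, and that of Cd3d, the other marker, by replicate 3 alone. That of Stx11 can be given by replicate 2 alone. These matches may be accidental, and the part of T cells in the value of Stx11 was not tested. Stx5a, the SNARE of the early Golgi, had 52.5 in Tl1a-tg against none in WT. Stx3, the apical syntaxin of enterocytes, had 0.375 in Tl1a-tg against no reads in WT. Napa, the adaptor that brings Nsf to spent SNARE complexes, had 74.7 in Tl1a-tg against 13.8 in WT. Nsf itself, Snap23, Snap29, Vamp4, Stx4a, Stx7 and Stx17 had no reads in either genotype. Over the 8 syntaxins the fitted means summed to 130 in Tl1a-tg against 294 in WT.

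The syntaxin-binding proteins that are described here had almost all their reads in Tl1a-tg. Stxbp6 (amisyn), which competes with Vamp proteins for syntaxin, had 139 in Tl1a-tg against 0.342 in WT. Stxbp4 (Synip), a partner of Stx4, had 114 in Tl1a-tg against 0.578 in WT. Stxbp5l, of the tomosyn kind, had 43.8 in Tl1a-tg against 0.577 in WT. Stxbp3b and Stxbp5 had no reads in either genotype. Stxbp3b matched a pseudogene in the GENCODE annotation, by an older name. Neuronal and glial markers, of which 2 of 7 were listed, summed to 4.96 in Tl1a-tg against 2.67 in WT, with Tubb3 at 0 reads in Tl1a-tg.

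Of the synaptotagmin and Sytl genes, the highest were Sytl2, which ties granules to Rab27, with 44.9 in Tl1a-tg against no reads in WT, and Syt11, with 30.9 in Tl1a-tg against none in WT. Syt15 (4.86) and Syt1 (0.621) were read in Tl1a-tg alone, Syt2 had 3.31 in Tl1a-tg against 0.342 in WT, and Syt7 (0.247) was read in WT alone. Syt12 and Syt16 had reads in neither genotype. Syt1 and Syt2, the calcium sensors of synapses, thus had low or no reads in both genotypes. The 3 exocyst genes, Exoc8, Exoc2 and Exoc7, had 24.8, 18.2 and 4.30 in Tl1a-tg, where alone they were read. Of all genes 31.4% were read in Tl1a-tg only. Each of these 3 means can be given by 1 library alone, that of Exoc8 by 82 reads in replicate 2 and that of Exoc7 by 13 in replicate 1. That of Exoc2 can be given by 55 reads in replicate 1 or by 60 in replicate 2. Such matches may be accidental.

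The Vps genes, which sort cargo in endosomes and lysosomes, were read in Tl1a-tg only in 12 of 23 cases and in WT only in 4. The share in Tl1a-tg only, 52.2%, stands beside 31.4% of all genes. Of these 12 genes, all but Vps13a, Vps52 and Vps54 had a mean that whole reads in 1 library alone can give. Of all genes with at least 3 reads in Tl1a-tg, 65.4% had such a mean, which may be accidental for a single gene. Of the Vps13 lipid transfer proteins, Vps13d had 114 in Tl1a-tg against 49.5 in WT, while Vps13a (87.7), Vps13b (26.6) and Vps13c (23.0) had reads in Tl1a-tg only. Both listed subunits of the retromer, which returns receptors from endosomes, were read in Tl1a-tg only, Vps26b with 54.5 and Vps26a with 30.6. Of the ESCRT genes, which sort cargo into multivesicular bodies, Vps28 (49.1), Vps25 (32.4) and Vps37a (3.64) were read in Tl1a-tg only, and Vps37c (58.2), Vps37b (0.519) and Vps4b (0.342) in WT only. Subunits of this complex thus fell on both sides. Of the GARP and EARP tethers, Vps51 had 66.9 in Tl1a-tg against 0.342 in WT, Vps52 (35.2) and Vps54 (0.725) were read in Tl1a-tg only, and Vps53 in neither genotype. The genes of the endosomal and lysosomal tethers (HOPS, CORVET and related) were divided. Vps11 had 0.375 in Tl1a-tg against 72.7 in WT, Vps8 none in Tl1a-tg against 44.4 in WT, and Vps33b 10.5 in Tl1a-tg against 29.0 in WT. Vps39 (20.3) and Vps33a (5.62) were read in Tl1a-tg only, and Vps41 in neither genotype. Vps9d1, outside these complexes, was read in neither genotype.

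**Figure D2:**
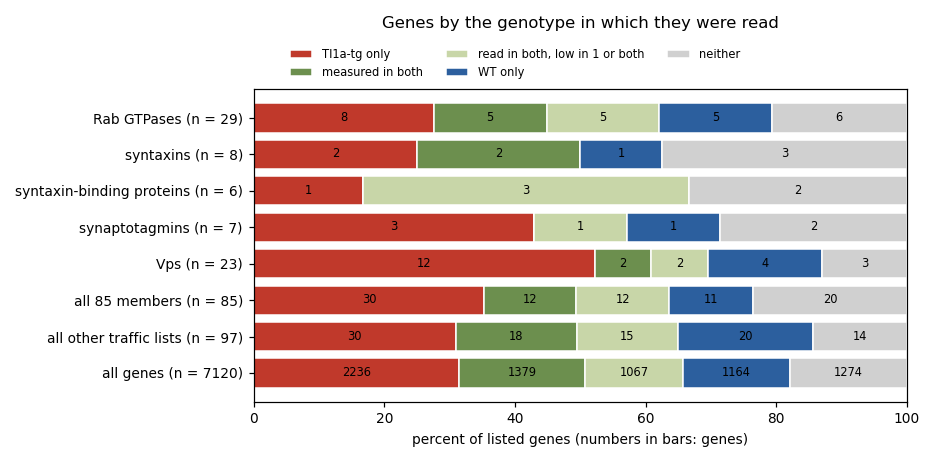
Percent of listed genes (horizontal axis, gene numbers in the bars) read in Tl1a-tg only, measured in both genotypes, read in both but low, read in WT only or read in neither, for the 5 larger families, all 85 members, the other traffic genes and all genes. The members' bar (30, 12, 12, 11 and 20 genes) lies close to that of all genes, and the Vps bar has the widest share in Tl1a-tg only, 12 of 23.

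The number of libraries behind a mean can be read in part from the fit. Where all reads of a genotype sit in 1 library, the fitted mean and the dispersion behind the deposited standard error give back a whole number of reads for that library, here within 0.03 reads. Of the 48 members with at least 3 reads in Tl1a-tg, 32 (66.7%) were matched in this way, and of the 22 in WT, 17 (77.3%). Over all genes 65.4% were matched in Tl1a-tg and 55.2% in WT, and among genes with a mean above 300, 20.9% and 12.3%. For most members with at least 3 reads a single library alone could thus give the genotype's mean, at a share close to that of all genes in Tl1a-tg. Since abundant genes also matched at times, a match of 1 gene may be accidental.

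Where a single library matched, it can be named, although the match may be accidental, and 5 of the 32 members matched in Tl1a-tg and 5 of the 17 in WT were matched by more than 1 library. Of the 27 members matched by 1 library in Tl1a-tg, 18 were matched by replicate 2, 6 by replicate 1 and 3 by replicate 3. Over all genes the numbers in the same order were 1158, 566 and 647 of 2371. Of the 12 in WT, 9 were matched by replicate 1, 2 by replicate 2 and 1 by replicate 3, where over all genes they were 701, 523 and 210 of 1434. Rab2a was matched by 142 reads in Tl1a-tg replicate 2, Rab4b by 211 in Tl1a-tg replicate 1 and Vps28 by 115 in Tl1a-tg replicate 3. In WT, Vamp2 was matched by 274 reads in replicate 2, Stx11 by 126 in replicate 2, Rab3a by 210 in replicate 1 and Vps8 by 178 in replicate 1. Stxbp4, Stxbp6, Stxbp5l, Rab14, Sytl2 and Vps13a in Tl1a-tg, and Rab5b and Vps37c in WT, had no match, so no library alone gave their means within this tolerance. Of the 12 members measured in both genotypes, 10 had a match in at least 1 genotype, among them Rab3d in WT (474 reads in replicate 1), Stx6 in both (83 in Tl1a-tg replicate 2, 485 in WT replicate 3) and Rab15 in both (282 in Tl1a-tg replicate 2, 237 in WT replicate 1). Only Rab43 and Stx16 had none in either genotype.

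**Figure D3:**
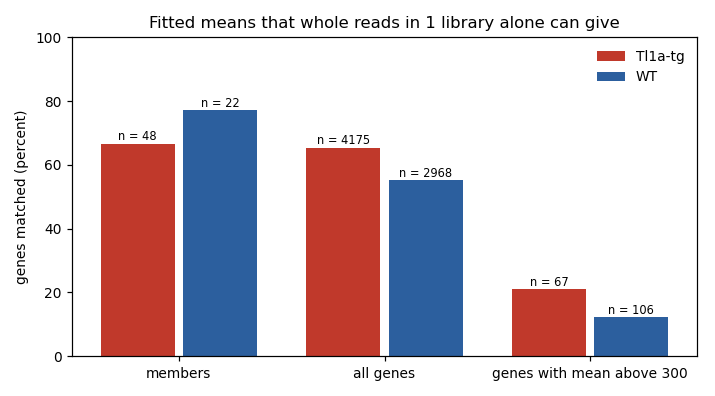
Percent of genes (vertical axis) whose fitted mean equals that of a whole number of reads in 1 library, within 0.03 reads, for members, all genes and genes with a mean above 300, in Tl1a-tg and WT bars with the number of genes above each. Members reach 66.7% in Tl1a-tg and 77.3% in WT, against 20.9% and 12.3% for the abundant genes.

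No member passed the authors' test. The authors' deposited table gives a DESeq2 p-value for 28 of the 85 members (36.2% of all genes had one) and an adjusted p-value for 14, and 0 of these 14 had an adjusted p below 0.05, against 3.67% of the 1662 genes with an adjusted p (2.47% higher and 1.2% lower in Tl1a-tg). The smallest adjusted DESeq2 p of a member was 0.201. An unadjusted p below 0.05 was given by the authors' deposited table for 3 of the 28 members (14.6% of the 2580 genes with a p, 10.7% higher), among them Stxbp6 and Stxbp4, both with higher means in Tl1a-tg. For Stxbp6 the authors' deposited table gives a log2 fold change of 8.67 (95% interval 2.15 to 15.19) with a DESeq2 p of 0.0092 and an adjusted p of 0.201. For Stxbp4 it gives 7.63 (0.32 to 14.93), a DESeq2 p of 0.0407 and an adjusted p of 0.23. Above 0.05, the next by DESeq2 p in the deposited table were Rab5c (p of 0.0627, adjusted p of 0.253), Sytl2 (0.0696), Vps52 (0.0829), Syt11 (0.0908) and Vps13b (0.0959, adjusted p of 0.333), all with higher means in Tl1a-tg. After shrinkage by the authors the log2 fold change of Stxbp6 in the deposited table was 0.33. With no spread in the deposited values no other tool was run. The WT means of Stxbp6 and Stxbp4 lie below 1 read per library, so the sizes of these fold changes depend on the fit.

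Members measured in both genotypes spread to either side of 0, each with an interval too wide to exclude large changes in either direction. Of the 12, 6 lay above 0 and 6 below 0 in the authors' deposited table of log2 fold changes, from -2.62 (Rab43) to 2.44 (Napa), with a median of 0.19. The sign of this median depends on the choice of genes, since it was -0.068 at a minimum of 5 in each genotype and -1.86 over the 2 genes left without single-library matches. Over all 1379 genes measured in both the median was -0.38 and 37.1% were positive. For Rab3d the deposited table gives 0.89 (95% interval -5.40 to 7.19, DESeq2 p of 0.78) and for Stx16 -1.10 (-7.56 to 5.36, p of 0.738). The deposited interval of Vps13d ran from -5.07 to 7.47 (DESeq2 p of 0.707) and that of Rab43 from -10.10 to 4.85 (p of 0.491). The narrowest interval of the 12, that of Vps33b, has a half-width of 5.29 on the log2 scale, or 39.1-fold, and changes below that size could not be told from 0. For 68 of the 85 members (80.0%, and 75.9% of all genes) the dispersion lay at its ceiling of 13. There the standard error follows from the fitted means and does not estimate a measured spread.

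**Figure D4:**
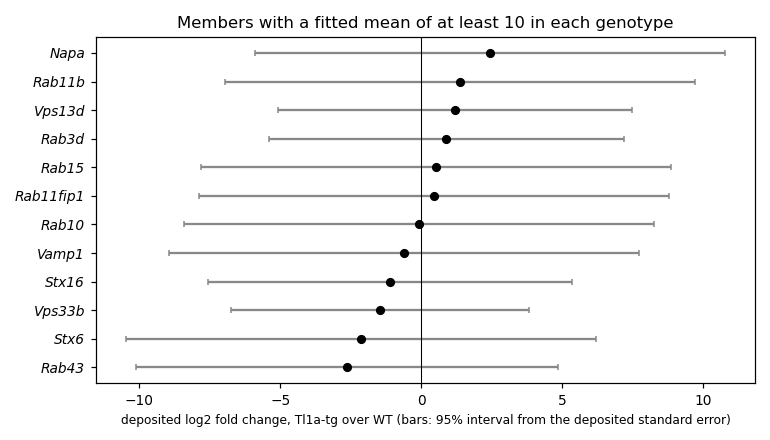
Deposited log2 fold change, Tl1a-tg over WT, in the authors' deposited table (horizontal axis) of the 12 members measured in both genotypes, with 95% intervals from the deposited standard errors as bars. Points run from 2.44 for Napa to -2.62 for Rab43, and every bar crosses 0.

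The authors' deposited table also gives each gene a mean over the libraries of their model, which may include libraries beyond the 6 described here. For genes with reads in these libraries the deposited mean did not fall below 0.0666 times the sum of both fitted means, within 0.2%, and it lay on that line for many genes. The part above the line was taken to come from other libraries of the model, which was not tested directly. By this measure 31 of the 85 members had at least 90% of their deposited mean in these 6 libraries (33.9% of all genes did), 47 had under 50% (46.5% of all genes) and 33 under 10%. Rab2a, Rab3a and Rab5b were carried to over 99% by these libraries, Rab3d to 67.5%, Stxbp6 to 45.9%, Vps13d to 32.4% and Rab15 to 30.7%. The deposited errors of such genes can thus rest on libraries that were not analysed here.

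**Figure D5:**
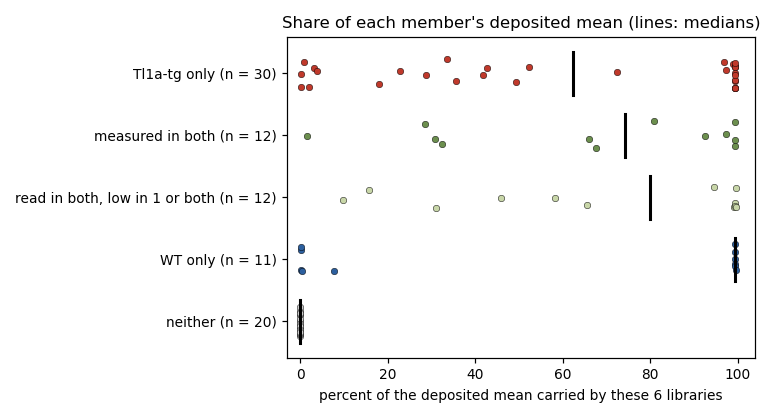
Percent of each member's deposited mean over libraries that the 6 libraries carry (horizontal axis), 1 point per member, by the genotypes in which it was read, with vertical lines for medians. Members in WT only sit at either end, 6 of 11 at 90% or more and 5 under 10%, and the 20 members read in neither genotype sit at 0.

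Other genes of vesicle traffic, in lists drawn up with earlier results of these data known, are given for their values only, and no difference between lists was tested. Of 158 genes in 4 lists 97 were listed, with 30 in Tl1a-tg only (30.9%, and 31.4% of all genes), 18 measured in both (18.6%, and 19.4%) and 20 in WT only (20.6%, and 16.3%). Their means summed to nearly the same in both genotypes, with a ratio of 0.998. Among other SNAREs and their partners 7 of 14 were read in WT only (16.3% of all genes were), including Snap47 (72.7), Use1 (56.9), Vti1b (55.9) and Ykt6 (53.5), and Napg in Tl1a-tg only (43.3). Complexin 2 (Cplx2), which clamps SNARE complexes, had 156 in Tl1a-tg against 279 in WT. The vesicle priming gene Unc13b had 23.0 in Tl1a-tg against 86.3 in WT, and Sec22b, a SNARE of early secretory traffic, 4.98 in Tl1a-tg against 95.7 in WT. Summed means of these SNAREs were 227 in Tl1a-tg against 704 in WT. The WT means of Snap47, Use1, Vti1b, Ykt6 and Sec22b, and the Tl1a-tg mean of Napg, can each be given by 1 library alone. Such a match may be accidental. The other genes of this list read in WT only were low there, Sec22c with 1.85, Scfd2 with 1.94 and Napb with 0.342. Of the Golgi tethers 11 of 19 were read in Tl1a-tg only (57.9%, and 31.4% of all genes), with summed means of 1020 in Tl1a-tg against 352 in WT. Highest were Trappc9 with 164 in Tl1a-tg against 63.2 in WT, Cog7 with 164 in Tl1a-tg alone, and Golgb1 with 152 in Tl1a-tg against 0.774 in WT. Among the tethers read in Tl1a-tg only, Cog1, Cog8, Golga3, Trappc1, Trappc3 and Trappc6a had a mean that 1 library alone can give. Of the 6 tethers with an adjusted p in the authors' deposited table, 3 had one below 0.05 (3.67% of all genes with an adjusted p did). These were Golga4 (118 in Tl1a-tg), Gcc2 (38.0) and Uso1 (64.3), with no reads in WT and adjusted DESeq2 p of 3.56e-05, 4.37e-05 and 6.32e-05. With near-0 means placed at the lowest value of the other genes without reads, 0 genes passed, these included. Of the Rab regulators 0 of 6 and of clathrin, adaptors and sorting nexins 0 of 8 genes with an adjusted DESeq2 p passed in the deposited table. An unadjusted DESeq2 p below 0.05 was seen for 3 of 15 and 0 of 10 genes with a p (14.6% of all genes with a p). The melanophilin gene Mlph, a Rab27 effector, had 103 in Tl1a-tg against 143 in WT, and Gdi2, which extracts Rab proteins from membranes, 94.8 in Tl1a-tg against 55.4 in WT. Rabgap1l had 122 in Tl1a-tg against 65.9 in WT. The adaptor subunit Ap1s3 had 179 in Tl1a-tg against 412 in WT, the endocytic adaptor Epn1 117 in Tl1a-tg against 143 in WT, and the adaptor subunit Ap3s1 71.9 in Tl1a-tg against 149 in WT.

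Of the markers of crypt cells, all 5 Paneth markers were read in both genotypes, with sums of 21633 in Tl1a-tg against 24236 in WT, and the goblet marker Muc2 had 12552 in Tl1a-tg against 13390 in WT. Of the other goblet markers listed, Spdef was read in Tl1a-tg alone (35.1) and Fcgbp in WT alone (1.08). Of the stem cell markers Olfm4 had 677 in Tl1a-tg against 679 in WT, Smoc2 116 in Tl1a-tg against 87.2 in WT, and Lgr5 131 in Tl1a-tg against 0.342 in WT. The absorptive enterocyte markers summed to 220 in Tl1a-tg against 57.9 in WT. Cycling markers summed to 194 in Tl1a-tg against 223 in WT. Kit, which was placed in the myeloid list, had 175 in Tl1a-tg against 363 in WT, and the cells it came from were not tested. The other genes of that list were low, Cx3cr1 with 11.0 in Tl1a-tg against 2.43 in WT, Itgam with 0.375 in Tl1a-tg alone, Lyz2 with 0.544 in WT alone, and Csf1r read in neither. Of the fibroblast markers Fn1 had 133 in Tl1a-tg against 50.5 in WT and Col1a1 60.5 in Tl1a-tg against none in WT. The Tl1a-tg means of Kit and Fn1 can also be given by 1 library alone. Cd22, the B cell marker listed, had 3.04 in Tl1a-tg against 0.939 in WT, and Acta2 of smooth muscle had no reads in either genotype. The part of these cells in the members' values was not tested. The values of Rab4b, Rab43 and Vps25 are uncertain, since 80.3%, 77.0% and 60.7% of the 50-base words in their transcripts also occur in transcripts of another annotated gene. The other 80 members with a coding transcript shared at most 25%.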

How the data were processed

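The authors' tools, by the submitters' processing notes, included RSEM 1.2.15, DESeq2 and Bowtie2 2.1.0, besides Trimmomatic and FastQC, and the notes give neither their order nor their roles. The build is not given in the sources used here. The deposited signal values are called normalized counts by their sheet name. They were checked to be 1 fitted mean per gene and genotype times a library factor (relative range of column ratios at most 1.67e-14), so no test of the values was run, and the authors' deposited log2 fold changes, standard errors, Wald score (not printed) and p-values were used. Missing p-values were kept as missing. Signs run Tl1a-tg over WT.

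Library factors were scaled to a geometric mean of 1 (0.591 to 1.46), and fitted means were divided by them. A mean within 1% of the lowest common value of its genotype (0.193 in Tl1a-tg, 0.176 in WT after scaling), or below 0.01, was read as no reads. The dispersion was solved from the deposited standard error with weights held at a mean of at least 0.5, and the search for whole reads in 1 library used the negative binomial score equation, at least 3 reads and a tolerance of 0.03. It was tested on simulated data, with 200 cases per genotype and setting. Where the reads were put in 1 library, 100% of cases were matched in each genotype. This share was fixed in advance, since the simulated means came from the same equation with a known dispersion of 13. It checks the computation only. Where the reads were put in all 3 libraries, 22.5% of cases in Tl1a-tg and 17.5% in WT were still matched by a single library. Reads in more than 1 library but not in all 3 were not simulated. For up to 10 libraries DESeq2 caps the dispersion at 10, and the cap of 13 seen in the authors' deposited errors would fit 7 libraries beyond these 6. Transcript lengths and shared 50-base words came from GENCODE vM21. Python 3.11.15, numpy 2.4.6, pandas 2.3.3 and scipy 1.17.1 were used.

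The members and lists were chosen with earlier results of these data known. Named were, by family, the members with the highest means, the smallest deposited p and the highest means in 1 genotype only, and a set list of members with known roles, and the 3 highest of each other list by mean of both genotypes. A member that these rules would name is not reported here. Other members named were chosen after their values were seen. Intervals of 95% use the deposited standard errors.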

Additional observations from a re-analysis of the deposited data

Results flagged for a closer look

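A deposited mean above 0 was seen for members with no reads in either genotype. There were 20 such members, and the authors' deposited table gives Syt16 a mean over libraries of 33.1, Rab6a, the Rab of Golgi retrograde transport, 17.3, and the SNARE Snap29 10.9. Among members with reads, Exoc7 had a deposited mean of 436 and Vps33b of 182, with 0.0655% and 1.44% of it in the 6 libraries.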

How the results depend on the processing

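The count of 0 called members stayed 0 at an adjusted DESeq2 p below 0.1, where 64 of all genes passed. The other settings are no check of this count. With near-0 means at the floor, 0 of all genes passed. Shrunken fold changes keep the same p-values, so that count could not differ. At a deposited mean of at least 50 no member was tested, since Exoc7 and Vps33b alone reach it and neither has a p. The 3 members with an unadjusted DESeq2 p below 0.05 became 0 among genes measured in both genotypes. Over all genes this count also fell, from 376 to 0, so the drop says nothing about the members. Members measured in both became 4 at a minimum of 50 (671 over all genes, from 1379). The median log2 fold change of measured members, 0.19, was -0.068 at a minimum of 5 and for Rab GTPases with the syntaxin, Vamp and Napa genes alone, 0.49 at a minimum of 50, 0.57 with the median of all measured genes set to 0, and 6.85 over the 47 members with a mean over both genotypes of at least 10 (0.68 over all genes chosen so), so its sign depends on the choice. Members in WT only became 7 at a mean below 1 in Tl1a-tg and at least 10 in WT (1075 over all genes, from 1164). The ratio of summed means became 1.74 over fitted totals. An alternative chosen after seeing the data left out genes whose mean 1 library alone can give. Then 4 members counted in Tl1a-tg only, 2 in WT only and 2 as measured in both, with a median of -1.86. Over all genes the same setting gave 445, 362 and 416, with a median of -0.38. The cause was not tested. No paired analysis was possible because the deposited columns hold 1 fitted mean per genotype, and leaving out replicates was not run for the same reason. Fitted means without read counts leave the depth unknown.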
